A study of Mus musculus with 12 samples.

Results

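The thioredoxin and glutaredoxin system was followed here through 10 genes: Txn1, Txn2, Txnrd1, Txnrd2, Txnip, Glrx, Glrx2, Glrx3, Glrx5 and Srxn1. They were taken by gene symbol from 2 deposited tables of gene counts, one of renal tubular epithelial cells (TECs) with 50433 genes and one of neutrophils (PMN) with 50434 genes. All 10 had a row in both tables. By the main location of the encoded protein, 6 were cytosolic (Txn1, Txnrd1, Txnip, Glrx, Glrx3 and Srxn1) and 4 mitochondrial (Txn2, Txnrd2, Glrx2 and Glrx5).

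RNA-Seq was performed on TECs and on blood neutrophils taken 24 hours after renal ischemia-reperfusion injury (IRI), in which blood flow to the kidney is stopped and then restored. All mice were wild type, and every group had undergone IRI, so no uninjured kidney enters these comparisons. The study's methods give an age of 8 to 12 weeks, clamping of both renal pedicles for 35 minutes, and 0.5 g/kg glutamine given intravenously, with saline as vehicle. They describe the TECs as sorted for Prominin-1 and against CD45, and how the sequenced blood neutrophils were isolated is not given in the sources used here. Each of the 4 groups (glutamine and vehicle in TECs, glutamine and vehicle in PMN) had 3 libraries, with TEC vehicle replicates numbered 3, 4 and 5 by their labels and the PMN replicate numbers given here only as names. The labels do not say that each library came from its own mouse, so p-values here measure the spread between these libraries only.

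Thioredoxins and glutaredoxins are small proteins that reduce disulfide bonds in other proteins. Thioredoxin (TXN1 in the cytosol, TXN2 in mitochondria) is recharged by thioredoxin reductases, selenoproteins that spend NADPH, and is bound and inhibited by TXNIP. Glutaredoxins draw their electrons from glutathione instead, and the monothiol members GLRX3 and GLRX5 carry iron-sulfur clusters, while sulfiredoxin (SRXN1) rescues overoxidized peroxiredoxins. In kidney tubules this machinery is known for handling the oxidants that follow reperfusion, and several of its cytosolic genes are known targets of the transcription factor NRF2, which binds antioxidant response elements.

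The promoter windows of Txn1, Glrx and Srxn1 are shown because these were the members with an unadjusted p below 0.05 in TECs, and 1 window of Txnrd1 because it is the only other member with the searched antioxidant motif. Each runs 5′ to 3′ from 250 bases before to 50 bases after a RefSeq transcript start on GRCm38.p6, which for Txnrd1 is an alternative start within the gene. Capitals mark matches, on either strand, to the core of the antioxidant response element (TGACNNNGC) or to the AP-1 site (TGACTCA). The windows lie at chr4:57956362-57956661 on the minus strand for Txn1, and on the plus strand at chr13:75839635-75839934 for Glrx, chr2:152105274-152105573 for Srxn1 and chr10:82858956-82859255 for Txnrd1.
Txn1: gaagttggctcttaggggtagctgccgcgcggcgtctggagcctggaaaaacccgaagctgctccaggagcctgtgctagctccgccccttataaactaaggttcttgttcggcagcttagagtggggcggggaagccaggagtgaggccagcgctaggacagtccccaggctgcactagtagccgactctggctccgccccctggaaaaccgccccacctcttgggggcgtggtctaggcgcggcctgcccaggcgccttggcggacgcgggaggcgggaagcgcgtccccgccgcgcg
Glrx: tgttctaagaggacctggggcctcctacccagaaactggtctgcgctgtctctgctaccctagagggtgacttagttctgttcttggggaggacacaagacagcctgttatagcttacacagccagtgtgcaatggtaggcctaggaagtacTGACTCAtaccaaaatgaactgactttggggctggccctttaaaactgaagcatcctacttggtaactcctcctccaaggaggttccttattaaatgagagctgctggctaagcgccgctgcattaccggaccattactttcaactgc
Srxn1: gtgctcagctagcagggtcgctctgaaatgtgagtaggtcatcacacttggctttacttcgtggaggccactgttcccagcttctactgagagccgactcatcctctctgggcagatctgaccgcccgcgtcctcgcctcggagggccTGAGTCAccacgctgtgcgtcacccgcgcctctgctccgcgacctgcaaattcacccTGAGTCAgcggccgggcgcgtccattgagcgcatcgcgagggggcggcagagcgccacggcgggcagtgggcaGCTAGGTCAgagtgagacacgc
Txnrd1: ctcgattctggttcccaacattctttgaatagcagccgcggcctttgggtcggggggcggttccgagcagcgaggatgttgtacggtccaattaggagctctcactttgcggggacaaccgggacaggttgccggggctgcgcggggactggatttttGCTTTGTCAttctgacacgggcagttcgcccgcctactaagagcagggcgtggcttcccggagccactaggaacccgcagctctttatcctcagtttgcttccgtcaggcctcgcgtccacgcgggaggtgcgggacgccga

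The Srxn1 window held 1 antioxidant core, 28 to 36 bases after the start site, and 2 AP-1 sites. The shown Txnrd1 window, 1 of 3 for that gene, held 1 antioxidant core, and the Glrx window held 1 AP-1 site. The Txn1 window held neither motif. Among all 32851 RefSeq windows of this length, 12.4% held the antioxidant core and 5.20% the AP-1 site. The E-box CACGTG, present in 7.15% of windows, was found in 1 of 4 windows of Glrx2, and the windows of Txn2, Txnrd2, Txnip, Glrx3 and Glrx5 held none of these 3 motifs. An antioxidant core can contain an AP-1 site, which was not so for any match to the letters searched here. The AP-1 site of Srxn1 at -45 to -39 is followed by gc and reads TGAGTCAgc. This stretch differs from the searched core only by a G in place of its C, and wider forms of the core were not searched. A match in letters is not a binding site.

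The TEC libraries held 5397370 to 10223461 counts and the PMN libraries 20225246 to 21878446, and the shallowest was TEC glutamine replicate 2. The PMN counts are means of 2 deposited columns per library, and what sets these columns apart is not given in the sources used here. Levels are given as CPM, counts scaled to a common library size, after TMM scaling within each table. The proximal tubule markers summed to 3799 to 6183 CPM in TECs and the neutrophil markers to 22082 to 73040 CPM in PMN, while neutrophil markers in TECs summed to 102 to 255 CPM. Of the genes behind the TEC sort, Prom1 (64.6 to 76.5 CPM with vehicle and 75.0 to 83.5 CPM with glutamine) overlapped between the groups, while Ptprc, the gene of the leukocyte antigen CD45, was higher in every glutamine library at 1.81 to 2.74 CPM, against 0.10 to 1.52 CPM with vehicle, on at most 25 counts in a library. Injury markers of the tubule (Havcr1, Lcn2, Krt20 and Vcam1) summed to 2017 to 4928 CPM with vehicle and to 2011 to 2658 CPM with glutamine in TECs, where Lcn2, Krt20 and Vcam1 each overlapped between the groups and Havcr1 did not, and erythroid markers reached 6709 CPM in glutamine replicate 2 and 4396 CPM in vehicle replicate 5. In PMN, vehicle replicate 1 held 1075 CPM of thick ascending limb markers and vehicle replicate 2 held 1440 CPM of endothelial markers, while the other libraries held at most 43.6 and 58.9 CPM. Macrophage and dendritic cell markers ranged from 4336 to 11720 CPM in PMN. The B cell markers, 3 genes, summed to 0.50 to 2.64 CPM with vehicle and to 20.9 to 33.4 CPM with glutamine there. The PMN libraries also differed far more from each other, since 54.1% of the genes with at least 200 counts in 1 library had at most 3 counts in another, against 0.251% in TECs. The part of these differences in the results below was not tested.

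In renal TECs, 3 of the 10 members, all among the 6 cytosolic ones, were lower in every glutamine library than in any vehicle library. These were Txn1, Glrx and Srxn1, at 0.59, 0.58 and 0.51 times their vehicle levels. Of all 14734 genes tested, 9.81% were lower without overlap in the same way. In sorted bulk cells, fewer cells of a type and less RNA per cell cannot be told apart. The other cytosolic members, Txnrd1, Glrx3 and Txnip, stood at 0.74, 0.955 and 1.05 times vehicle. The 4 mitochondrial members lay between 0.88 and 0.98 times vehicle, and for all of these genes the groups overlapped. No member passed an adjusted p of 0.05 in edgeR's quasi-likelihood test, in which 0.0% of the 14734 genes tested passed. At an unadjusted p below 0.05, 3 of 10 members passed, all lower with glutamine, while 12.7% of all genes passed in either direction and 5.51% lower with glutamine. The study itself had named Txn1, Glrx and Srxn1 from these same libraries, so that the choice of these genes is not independent of the values given here. Being named there does not mean that the study gave the same direction.

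**Figure D1:**
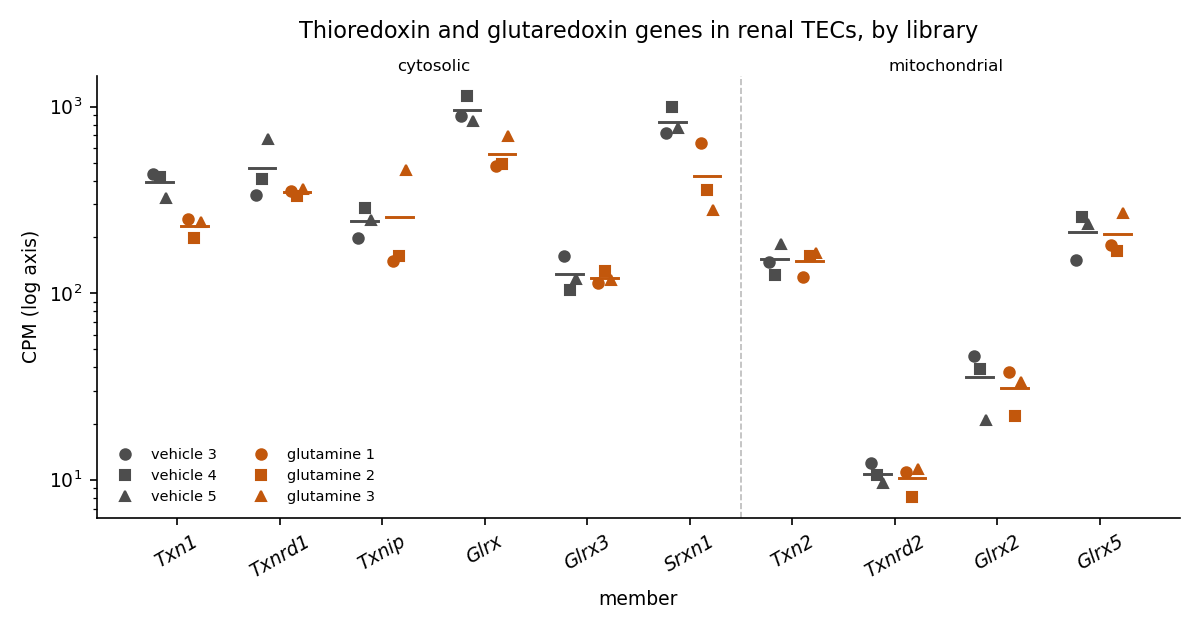
Levels of the 10 members in renal TECs, in CPM on a log axis. Each symbol is 1 library, horizontal bars are group means (n = 3), gray is vehicle and orange glutamine. For Txn1, Glrx and Srxn1 all glutamine libraries lie below all vehicle libraries; for the other members the groups overlap.

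Txn1 (chr4:57943373-57956411 on GRCm38, minus strand) encodes the cytosolic thioredoxin itself. It stood at 436, 418 and 321 CPM in vehicle replicates 3, 4 and 5, and at 248, 199 and 241 CPM in glutamine replicates 1, 2 and 3. Every glutamine library was below every vehicle library, with the smallest gap between vehicle replicate 5 and glutamine replicate 1. The group means were 392 ± 61.6 and 230 ± 26.9 CPM (SD, n = 3), and edgeR placed the log2 fold change at -0.77 (standard error (SE) 0.20, 95% confidence interval -1.22 to -0.32, unadjusted p = 0.00304, adjusted p = 0.217). Havcr1, the injury marker of the proximal tubule also known as KIM-1, separated the same libraries in the same direction, at 793, 541 and 106 CPM with vehicle and at 94.1, 49.4 and 26.2 CPM with glutamine. Within the groups the order of libraries was shared in part. Txn1 in the vehicle libraries and Srxn1 in the glutamine libraries followed the order of Havcr1 in full. Glrx shared only the lowest vehicle library, replicate 5, with Havcr1, and was highest in glutamine replicate 3, where Havcr1 was lowest. Srxn1 was lowest in vehicle replicate 3, where Havcr1 was highest, and Txn1 was lowest in glutamine replicate 2. The part of Havcr1-expressing cells in the levels of Txn1, Glrx and Srxn1 was not tested.

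Its mitochondrial counterpart Txn2 (chr15:77915047-77929006, minus strand) stood at 146, 126 and 183 CPM with vehicle and at 122, 159 and 164 CPM with glutamine. The groups overlapped throughout, and the log2 fold change was -0.03 (SE 0.22, interval -0.51 to 0.45). The point estimate of Txn1 therefore lies outside the interval of Txn2. The direct comparison, the log2 ratio of Txn1 to Txn2 counts within each library, was 1.58, 1.73 and 0.81 with vehicle and 1.02, 0.32 and 0.56 with glutamine. These ratios overlapped, since vehicle replicate 5 fell between glutamine libraries, and the mean difference was -0.74 (exact permutation test over libraries, two-sided p = 0.2, adjusted p = 0.6 over 8 such comparisons). With 3 libraries against 3 the smallest possible p is 0.1.

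The reductases recharge thioredoxin, Txnrd1 (chr10:82833951-82897712, plus strand) in the cytosol and Txnrd2 (chr16:18426384-18479073, plus strand) in mitochondria. Txnrd1 stood at 335, 411 and 666 CPM with vehicle and at 352, 332 and 362 CPM with glutamine. The glutamine libraries were close together and vehicle replicate 5 stood highest, so the log2 fold change of -0.43 (SE 0.25, interval -0.99 to 0.12) became -0.10 without that library. Txnrd2 was the lowest member, at 9.58 to 12.2 CPM with vehicle and 8.03 to 11.4 CPM with glutamine, resting on 124, 118 and 94 counts with vehicle and on 92, 40 and 104 counts with glutamine. Its log2 fold change was -0.08 (SE 0.32, interval -0.78 to 0.62). The Txnrd1 to Txnrd2 ratio differed by -0.28 between groups (exact permutation test, two-sided p = 0.7, adjusted p = 0.933).

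Txnip (chr3:96557957-96561883, plus strand) encodes the inhibitor of thioredoxin. It stood at 197, 286 and 246 CPM with vehicle and at 148, 159 and 459 CPM with glutamine. Glutamine replicates 1 and 2 were below every vehicle library and glutamine replicate 3 was above them all. The log2 fold change of 0.07 (SE 0.39, interval -0.78 to 0.92) was -0.67 without glutamine replicate 3. Txnip overlaps the antisense gene Gm15441 over 443 bases of transcript, with far fewer counts, so reads may be shared. Its pooled spread within groups, an SD of 0.67 on the log2(CPM + 0.5) scale, was reached or exceeded by 21.5% of tested genes, while Txn1 had an SD of 0.21, which 86.1% of tested genes reached or exceeded.

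Glrx (chr13:75839868-75850154, plus strand) encodes the cytosolic glutaredoxin. It stood at 892, 1141 and 838 CPM with vehicle and at 478, 492 and 694 CPM with glutamine, again with no overlap. The means were 957 ± 162 and 555 ± 121 CPM (SD, n = 3), and edgeR placed the log2 fold change at -0.79 (SE 0.22, interval -1.27 to -0.30, unadjusted p = 0.00464, adjusted p = 0.223). Mitochondrial Glrx2 (chr1:143716338-143749676, plus strand) stood at 46.3, 39.2 and 20.9 CPM with vehicle and at 37.6, 21.9 and 33.6 CPM with glutamine, overlapping. Its log2 fold change was -0.19 (SE 0.32, interval -0.90 to 0.52), and this interval includes the estimate of Glrx. Stretches of up to 137 bases of Glrx2 transcripts recur in transcripts of other genes, so some of its reads may have been shared. The Glrx to Glrx2 ratio differed by -0.64 (exact permutation test, two-sided p = 0.3, adjusted p = 0.6), and by -0.39 without either vehicle replicate 5 or glutamine replicate 1.

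The monothiol glutaredoxins Glrx3 (chr7:137437614-137468594, plus strand) and Glrx5 (chr12:105032688-105042906, plus strand) handle iron-sulfur clusters in the cytosol and in mitochondria. Glrx3 stood at 157, 105 and 119 CPM with vehicle and at 114, 131 and 118 CPM with glutamine. Glrx5 stood at 151, 256 and 235 CPM with vehicle and at 182, 169 and 270 CPM with glutamine. Both overlapped between groups, with log2 fold changes of -0.07 (SE 0.21, interval -0.53 to 0.40) and -0.05 (SE 0.26, interval -0.62 to 0.52). Their ratio differed by 0.00 at 2 decimals (exact permutation test, two-sided p = 1.0). Glrx3 is cytosolic like Glrx, and whether the 2 genes differ in response was not tested. A processed pseudogene, Gm12669, matches Glrx3 over 1014 bases at 99.1% identity but had only 4 counts over all TEC libraries.

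Srxn1 (chr2:152105516-152111376, plus strand) encodes sulfiredoxin. It stood at 722, 1000 and 766 CPM with vehicle and at 640, 356 and 279 CPM with glutamine, without overlap, and glutamine replicate 1 came nearest to the vehicle libraries. The means were 829 ± 150 and 425 ± 190 CPM (SD, n = 3), and edgeR placed the log2 fold change at -0.96 (SE 0.30, interval -1.62 to -0.31, unadjusted p = 0.00771, adjusted p = 0.243). Without glutamine replicate 2 or vehicle replicate 5, the libraries richest in erythroid markers, the log2 fold change was -0.68 or -0.90 for Txn1, -0.71 or -0.88 for Glrx and -0.85 or -1.02 for Srxn1. Groups did not overlap, with glutamine lower, for Txn1, Glrx and Srxn1 among the 10 members and for 9.81% of all genes tested. With DESeq2's Wald test Txn1 and Glrx passed, with adjusted p = 0.0316 and 0.0432, while Srxn1 had 0.0583 and 2.37% of genes with an adjusted p passed in all. In edgeR without an expression filter Glrx and Srxn1 passed with adjusted p = 0.0449 and 0.00473, where 1.46% of genes passed, and Txn1 had 0.0545.

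**Figure D2:**
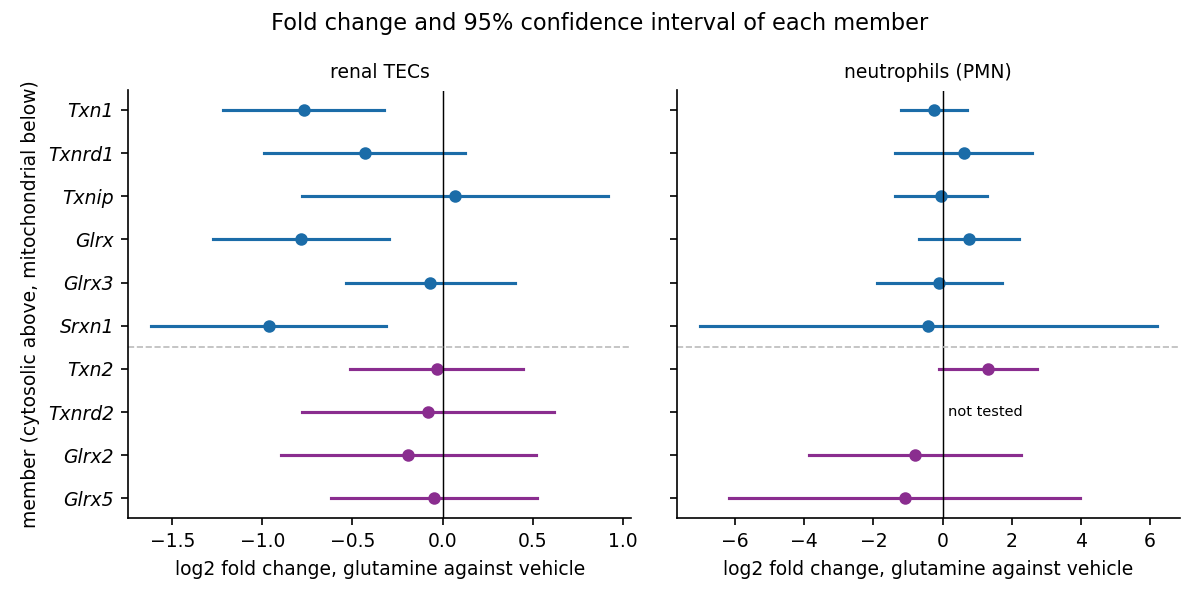
Log2 fold change of each member with glutamine against vehicle, with its 95% confidence interval from edgeR, in renal TECs (left) and PMN (right, wider axis). Points are estimates from 3 against 3 libraries. In TECs the intervals of Txn1, Glrx and Srxn1 exclude 0; in PMN every interval includes 0, and Txnrd2 was not tested there.

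By compartment, 5 of 6 cytosolic and 4 of 4 mitochondrial members had a log2 fold change below 0 in TECs. The median was -0.60 for the cytosolic and -0.06 for the mitochondrial members, beside 0.01 for all genes tested. The cytosolic median rests on a split group, with Txn1, Glrx and Srxn1 between -0.96 and -0.77, Txnrd1 at -0.43, and Glrx3 and Txnip near 0. No test was made between these medians.

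**Figure D3:**
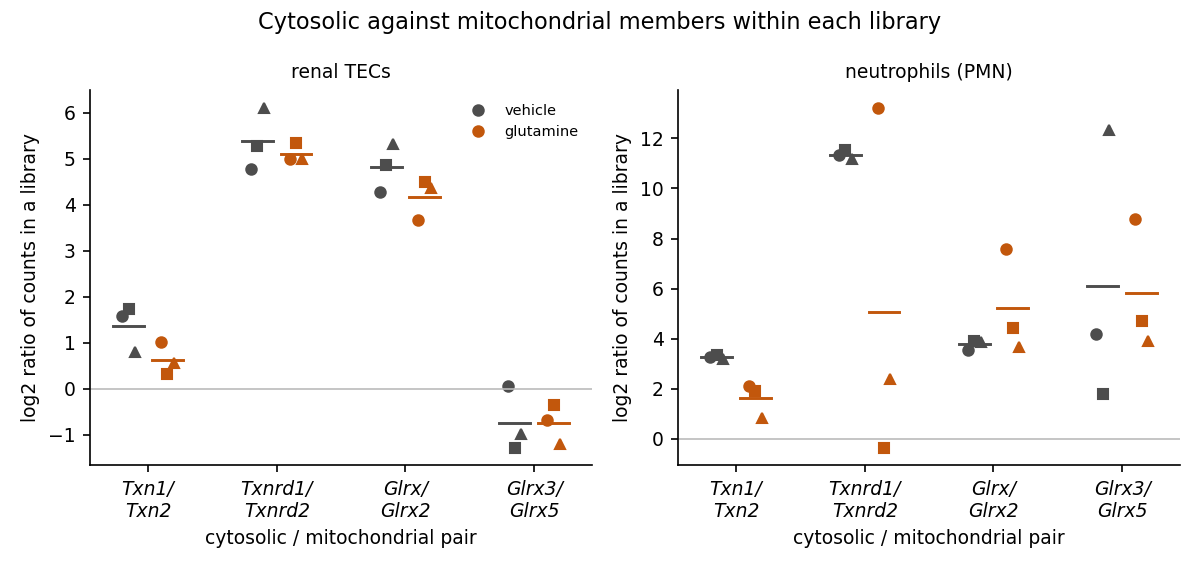
Log2 ratio of cytosolic to mitochondrial counts within each library, for 4 pairs, in renal TECs (left) and PMN (right). Symbols are libraries, bars are group means (n = 3), gray is vehicle and orange glutamine, and a ratio of 0 means equal counts with no correction for length. The Txn1 to Txn2 ratio in PMN is the only pair whose groups do not overlap.

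Per kilobase of the longest coding transcript, vehicle TECs held 711 ± 120 CPM per kb of Glrx, 373 ± 58.6 of Txn1 and 295 ± 53.2 of Srxn1 (SD, n = 3). Glrx stood above the others in every vehicle library, while the ranges of Txn1 and Srxn1 overlapped. Txnrd1 followed at 130 ± 47.9 CPM per kb, below Srxn1 in every library and overlapping Txnip, and Txnip, Txn2 and Glrx5 lay at 86.0, 74.1 and 73.1 CPM per kb with overlapping ranges. Glrx3 had 36.9, Glrx2 10.1 and Txnrd2 3.76 CPM per kb, each range clear of its neighbours. Glrx, Txn1 and Srxn1, the members with an unadjusted p below 0.05, thus had the highest levels per length, and in glutamine TECs their means kept ranks 1 to 3 at 413, 218 and 151 CPM per kb, although Srxn1, at 99.3 to 228 CPM per kb, there overlapped Txn1, Txnrd1 and Txnip. With the median transcript length in place of the longest, Txn2 moved up to 154 CPM per kb, while ranks 1 to 3 and the lowest 2 ranks held the same genes, with Srxn1 and Txn2 level at 151 and 150.4 CPM per kb in glutamine TECs.

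In PMN the levels were spread more widely between members. Per kilobase, vehicle PMN held 433 ± 139 CPM per kb of Txn1, 203 ± 67.7 of Glrx and 166 ± 109 of Txnip (SD, n = 3). The lowest vehicle library for Txn1, at 280 CPM per kb, was just above the highest for Glrx, at 276, while Glrx and Txnip overlapped. Txnrd1, Txn2 and Glrx3 followed at 27.2, 23.2 and 19.7 CPM per kb, with overlapping ranges. Srxn1, Glrx2, Glrx5 and Txnrd2 had lower means, with no vehicle library above 13.2 CPM per kb. Srxn1, at rank 3 in vehicle TECs with 257 to 356 CPM per kb, ranged from 0.107 to 13.2 CPM per kb in vehicle PMN, highest in replicate 2. The 2 tables were normalized separately and were not tested against each other.

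**Figure D4:**
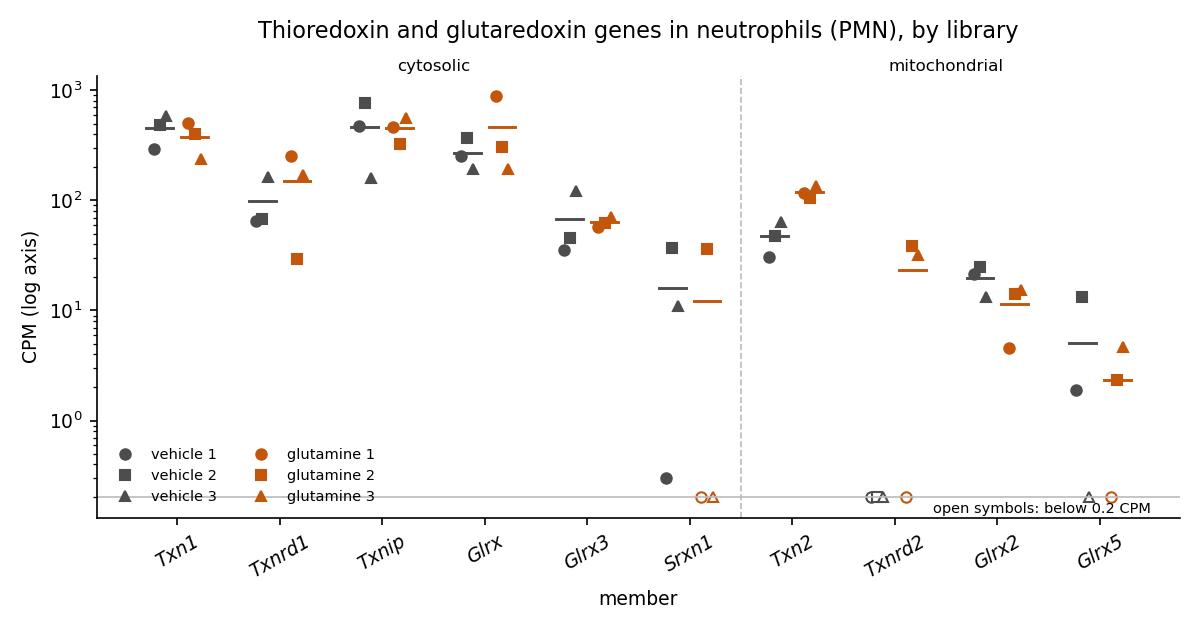
Levels of the 10 members in PMN, in CPM on a log axis. Symbols are libraries, bars are group means (n = 3), gray is vehicle and orange glutamine, and open symbols at the lower line are libraries below 0.2 CPM. Only Txn2 separates the groups, and Srxn1, Txnrd2 and Glrx5 have libraries on and near that line.

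Of the 9 members tested in PMN, 1 was higher with glutamine without overlap, and for the others the groups overlapped. Mitochondrial Txn2 stood at 30.4, 48.0 and 63.9 CPM in vehicle replicates 1, 2 and 3 and at 117, 106 and 134 CPM in glutamine replicates 1, 2 and 3. All glutamine libraries were above all vehicle libraries, as for 5.87% of the 10130 genes tested in PMN. The share of genes without overlap in the other direction is not given here. The means were 47.5 ± 16.8 and 119 ± 14.2 CPM (SD, n = 3), and edgeR placed the log2 fold change at 1.33 (SE 0.60, interval -0.09 to 2.74, unadjusted p = 0.0623, adjusted p = 1.0). Without vehicle replicate 1, which held the tubular markers, it was 1.05, and without vehicle replicate 2, which held the endothelial markers, it was 1.33. The B cell markers, at the levels given above, separated these groups in the same direction, as did Ptprc at 317 to 569 CPM with vehicle and 754 to 1150.5 CPM with glutamine. Their part in the result was not tested. The sum of the injury markers did so too, at 1096 to 1650 CPM with vehicle and 1746 to 2176 CPM with glutamine. Almost all of this sum was Lcn2, a gene that neutrophils also express, and Vcam1, and each of these genes overlapped between the groups. Havcr1 was at 0 in 5 of 6 libraries and Krt20 in all of them. The part of the injury markers in the level of Txn2 was not tested. Short stretches of up to 90 bases of Txn2 transcripts recur in transcripts of other genes, so some reads may have been shared.

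No member passed an adjusted p of 0.05 in PMN, where 0.0% of genes passed in edgeR, and 0 of 9 passed at an unadjusted p below 0.05, against 3.42% of genes. With DESeq2's Wald test 2.5% of the genes given an adjusted p passed, and none of the members.

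Cytosolic Txn1 had no separation between the groups in PMN. It stood at 294, 490 and 580 CPM with vehicle and at 505, 401 and 238 CPM with glutamine, overlapping, with a log2 fold change of -0.25 (SE 0.40, interval -1.21 to 0.70). It was -0.53 and -0.51 without glutamine replicate 1 or vehicle replicate 1, and -0.01 and -0.05 without glutamine replicate 3 or vehicle replicate 3. The log2 ratio of Txn1 to Txn2 counts was 3.27, 3.35 and 3.18 with vehicle and 2.11, 1.92 and 0.83 with glutamine. The vehicle libraries were close together and all above the glutamine libraries. The difference was -1.65 (exact permutation test, two-sided p = 0.1, which is the design's lower limit, adjusted p = 0.6 over 8 comparisons), and it stayed between -1.89 and -1.25 when any single library was left out.

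Neither reductase separated the groups in PMN. Txnrd1 stood at 64.8, 67.7 and 163 CPM with vehicle and at 253, 29.6 and 170 CPM with glutamine, and glutamine replicates 1 and 2 were the highest and lowest of all libraries. Its log2 fold change was 0.61 (SE 0.83, interval -1.37 to 2.60). Txnrd2 had 0, 0 and 1 counts with vehicle and 0, 814 and 643 counts with glutamine. It did not pass the expression filter and was not tested, and 0 counts allow up to 0.137 to 0.158 CPM in these libraries, counting error only. The counts lay almost entirely in glutamine replicates 2 and 3, and the groups overlapped at 0. The Txnrd1 to Txnrd2 ratio differed by -6.26 (exact permutation test, two-sided p = 0.4, adjusted p = 0.64), a value set by these zeros that ran from -10.33 without glutamine replicate 1 to -3.53 without glutamine replicate 2.

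Txnip stood at 472, 775 and 159 CPM with vehicle and at 466, 325 and 565 CPM with glutamine in PMN, with a log2 fold change of -0.05 (SE 0.56, interval -1.39 to 1.28). Glrx stood at 255, 371 and 192 CPM with vehicle and at 893, 308 and 193 CPM with glutamine. Only glutamine replicate 1 was high, and the log2 fold change of 0.77 (SE 0.61, interval -0.67 to 2.21) was -0.13 without it. Glrx2 stood at 21.5, 25.0 and 13.1 CPM with vehicle and at 4.58, 14.2 and 15.4 CPM with glutamine, a log2 fold change of -0.81 (SE 1.29, interval -3.87 to 2.26). The fold change of Glrx2 was -0.44 on the log2 scale without glutamine replicate 1. The Glrx to Glrx2 ratio differed by 1.46 (exact permutation test, two-sided p = 0.3, adjusted p = 0.6), which fell to 0.27 without glutamine replicate 1 and rose to 2.24 without glutamine replicate 3.

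Glrx3 stood at 35.2, 45.5 and 123 CPM with vehicle and at 57.9, 62.0 and 70.5 CPM with glutamine, a log2 fold change of -0.10 (SE 0.76, interval -1.91 to 1.72). Glrx5 had 38, 290 and 0 counts with vehicle and 2, 50 and 92 counts with glutamine. Srxn1 had 6, 813 and 230 counts with vehicle and 0, 770 and 1 counts with glutamine. For both genes libraries of 1 group ranged from none or almost none to many counts, and the log2 fold changes of -1.09 (SE 2.14, interval -6.17 to 3.98) for Glrx5 and -0.41 (SE 2.78, interval -7.02 to 6.20) for Srxn1 leave the direction undetermined. An SD as large as that of Srxn1 was found for 9.30% of the genes tested in PMN. The Glrx3 to Glrx5 ratio differed by -0.30 (exact permutation test, two-sided p = 0.9, adjusted p = 1.0).

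In PMN the median log2 fold change was -0.07 for the 6 cytosolic members and -0.81 for the 3 mitochondrial members tested, beside 0.00 for all genes. The mitochondrial median is Glrx2 and hides the opposite signs of Txn2 and Glrx5, and it turned to 0.42 with limma.

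The genes around the system were described through 7 lists. In TECs, 12 thioredoxin clients, proteins reduced by thioredoxin or held by it, were tested, and 4 had an unadjusted p below 0.05, 1 lower and 3 higher, beside 12.7% of all genes in either direction and 5.51% lower. Prdx1, a cytosolic peroxiredoxin that thioredoxin recharges, stood at 2502 ± 407 CPM (vehicle) and 1297 ± 107 CPM (glutamine, SD, n = 3), and edgeR placed its log2 fold change at -0.95 (SE 0.20, adjusted p = 0.178). Map3k5, the stress kinase that thioredoxin holds inactive, went the other way at 55.2 ± 10.3 and 129 ± 8.56 CPM (log2 fold change 1.22, SE 0.21, adjusted p = 0.128). Msrb1, a selenoprotein that repairs oxidized methionine, had a log2 fold change of 0.70 and Prdx5, found in mitochondria among other sites, -0.09. The list's median was -0.15.

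**Figure D5:**
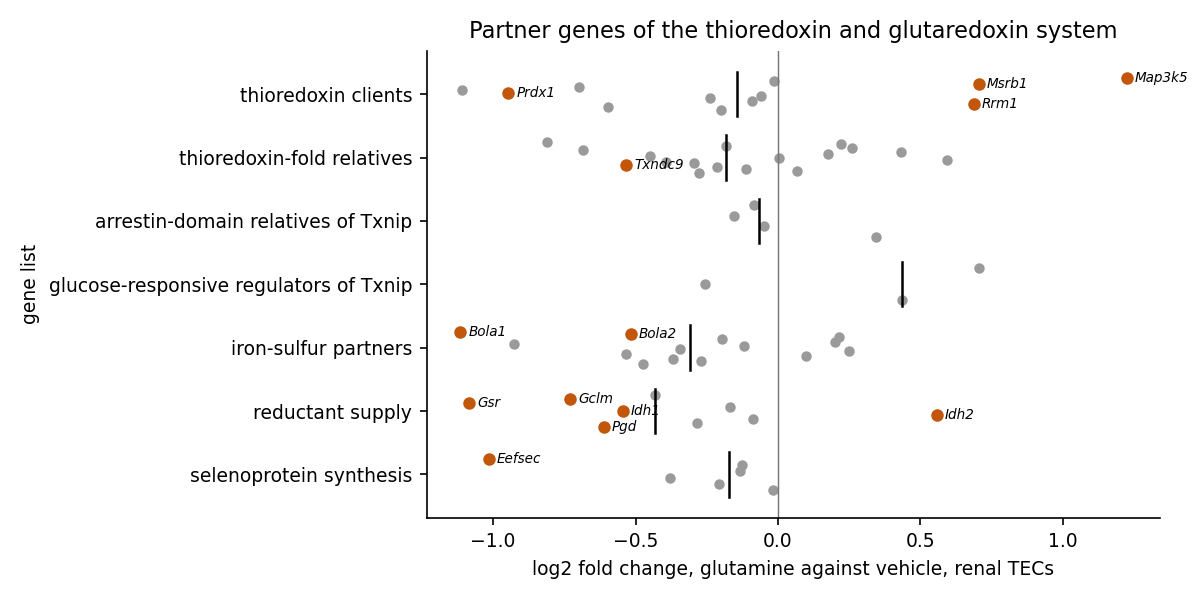
Log2 fold changes with glutamine in renal TECs for the tested genes of 7 lists around the system. Each point is a gene, orange and named where the unadjusted p is below 0.05, and the black line is the list's median. Of the 9 reductant supply genes, 8 lie to the left of 0, while thioredoxin clients lie on both sides.

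Of the 9 tested genes that supply glutathione or NADPH, 5 had an unadjusted p below 0.05, 4 lower and 1 higher, beside the same 12.7% and 5.51% of all genes, and the median was -0.43. Gsr, the glutathione reductase behind the glutaredoxins, stood at 552 ± 123 CPM (vehicle) and 260 ± 63.2 CPM (glutamine, SD, n = 3), and edgeR placed its log2 fold change at -1.08 (SE 0.24, adjusted p = 0.178). Pgd of the pentose phosphate pathway had -0.61, Gclc, the catalytic subunit of glutathione synthesis, had -0.43 with an unadjusted p of 0.0871, and Gclm, its modifier subunit, had -0.73. The study had named Gsr from these libraries as well. The single higher gene was the mitochondrial NADP isocitrate dehydrogenase Idh2, at 144 ± 22.8 CPM (vehicle) and 212 ± 40.2 CPM (glutamine), with a log2 fold change of 0.56, while its cytosolic form Idh1 had -0.55. Both were named after their values were seen.

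Of 14 tested iron-sulfur partners, 2 had an unadjusted p below 0.05, beside 12.7% of all genes in either direction and 5.51% lower. Both were lower: Bola2, the cytosolic partner of Glrx3, with a log2 fold change of -0.52, and Bola1, a mitochondrial partner of Glrx5, with -1.12. The chaperone Hspa9, the most abundant of the list, had -0.12, and the median was -0.31. Of 17 thioredoxin-fold relatives, 1 passed, Txndc9 (-0.53), while Txnl1 and Tmx2 had -0.21 and 0.26. Of 6 selenoprotein synthesis genes, 1 passed, the elongation factor Eefsec (-1.02), beside -0.38 for Sephs2 and -0.02 for Trnau1ap. Txndc9 and Eefsec were both lower, and no list count in this paragraph was tested against those shares. None of the 4 tested arrestin-domain relatives of Txnip and none of the 3 genes of its glucose-responsive regulators passed, with medians of -0.07 and 0.44 and values of -0.05 for Arrdc3, 0.34 for Arrdc4, 0.44 for Mlxipl, a glucose-sensing transcription factor, and -0.26 for its relative Mlxip. Some other genes of these lists were not analysed here.

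In PMN 1 of the 53 genes tested in these 7 lists had an unadjusted p below 0.05, beside 3.42% of all genes. It was Gclc, at 33.4 ± 46.0 CPM (vehicle) and 0.06 ± 0.11 CPM (glutamine, SD, n = 3), with an adjusted p of 1.0 from edgeR. The most abundant client and supply genes, Prdx5 and Gsr, had log2 fold changes of -0.02 and -0.10 there, and Prdx1, second among the clients, had -0.80 with overlapping groups. The list medians were 0.05 for 9 clients, 0.33 for 13 thioredoxin-fold relatives, -0.39 for 3 arrestin-domain relatives, 2.01 for 2 regulators of Txnip, -0.02 for 13 iron-sulfur partners, -0.36 for 8 supply genes and 0.08 for 5 selenoprotein synthesis genes.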

How the data were processed

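The authors deposited estimated counts per gene, made from 50-base reads with Trim Galore 0.6.4 and Salmon 1.0.0 against mm10 per the submitters' processing notes; the annotation is not given in the sources used here. The deposited PMN table had been altered by a spreadsheet: 3.20% of cells carried extra points and 0.391% had become dates, which were decoded to counts, and its 2 columns per library, whose meaning is not given in the sources used here, were averaged. Counts were rounded and tested in each table with edgeR 4.0.16 (TMM, default expression filter, quasi-likelihood test, Benjamini-Hochberg), over 14734 genes in TECs and 10130 in PMN. The standard error was the fold change over the root of F. DESeq2 1.42.0, limma 3.58.1, other scalings, filters, columns and fits without each library were alternatives. Ratios used a pseudocount of 0.5. On simulated data with known changes edgeR recovered most of them in TECs and almost none in PMN. The size of these known changes is not given here, and recovery at the size of the members' changes was not tested. DESeq2's calls on that data included more unchanged genes than its threshold allows in both tables. The members and lists were chosen with earlier results of these data known. All members, the 2 most abundant genes of each list and those past an unadjusted p of 0.05 were named in TECs, up to 4 a list, with the exception stated beside the supply genes, and in PMN only some of them. The PMN table had been planned as plain counts. Positions and lengths came from GENCODE M21. Some items are not reported here.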

Additional observations from a re-analysis of the deposited data

How the results depend on the processing

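No paired analysis was possible because only number 3 occurs in both TEC groups, and the numbers that end the neutrophil titles are all different. In TECs the number of members past an adjusted p of 0.05 was 2 with DESeq2 and 2 without an expression filter, and 0 in the other alternatives, and in PMN it was 0 in all of them. The number lower at an unadjusted p below 0.05 stayed between 3 and 4 without any one library. Scaling by library totals alone moved the median over all genes to -0.16 and the cytosolic median to -0.76, and 1635 of the 2280 genes past an unadjusted p of 0.05 were then lower, against 812 of 1878. Without one library, the TEC cytosolic median ranged from -0.70 to -0.50 and the mitochondrial one from -0.21 to 0.03. The PMN medians ranged from -0.26 to 0.45 and from -1.07 to 1.31, both highest without vehicle replicate 2, and the mitochondrial one was above 0 without any one vehicle library or without glutamine replicate 1, fits in which Txnrd2 also passed the filter and entered the median. It also turned with limma (0.42), without an expression filter, which adds Txnrd2 as well (0.22), and with at least 10 counts in every library, which leaves out Glrx5 (0.20), and the cytosolic one turned with limma (0.14). No fit turned the sign of Txn1, Glrx or Srxn1 in TECs (lowest and highest -0.90 and -0.68, -0.98 and -0.64, -1.39 and -0.74 without one library) or of Txn2 in PMN (1.05 to 1.59).

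Signs turned for members with estimates near 0 or with wide intervals. In TECs they turned without one library for Txn2 (-0.15 to 0.12), Txnrd2 (-0.17 to 0.055), Glrx2 (-0.46 to 0.043), Glrx3 (-0.19 to 0.11), Glrx5 (-0.29 to 0.10) and Txnip (-0.67 to 0.35). Txnip was -0.10 with limma and -0.10 with library totals, and leaving predicted, Rik and sensory receptor genes out of the scaling gave 0.017 for Txn2 and 0.002 for Glrx5. In PMN they turned without one library for Txnrd1 (-0.027 to 1.18), Txnip (-0.47 to 0.51), Glrx (-0.13 to 1.12), Glrx3 (-0.44 to 0.65), Glrx5 (-2.01 to 1.30) and Srxn1 (-9.05 to 1.09). Limma gave 0.17 for Txnip, 0.12 for Glrx3 and 0.42 for Glrx5 there, and upper-quartile scaling 0.042 for Txnip. The ratio difference turned without one library for Txnrd1 to Txnrd2 in TECs (-0.59 to 0.084) and for Glrx3 to Glrx5 in TECs (-0.28 to 0.40) and PMN (-2.46 to 2.82), the last also being 0.31 with a pseudocount of 5. The cause was not tested. In PMN, Txnrd2, Glrx5 and Srxn1 each had 0 counts in at least 1 library and many in others, so their values there are uncertain.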

Other observations

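Gm15441, antisense to Txnip over 443 bases of transcript, had 127, 105 and 36 counts with vehicle and 23, 6 and 61 counts with glutamine in TECs. These groups overlapped. The third thioredoxin reductase, Txnrd3, stood at 13.9, 15.3 and 21.9 CPM with vehicle and at 16.1, 14.7 and 11.4 CPM with glutamine in TECs.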
